A study of Mus musculus with 54 samples.

Results

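Liver RNA from RE mice sampled at zeitgeber time (ZT) 8 was compared with liver RNA from RE mice sampled at ZT4. The comparison holds 6 of the 54 libraries of the series, 3 at ZT8 and 3 at ZT4, chosen by the genotype and time in the column names of the deposited table. RE mice carry a floxed STOP cassette that blocks the clock gene Bmal1 (Arntl) throughout the body, and the driver Syt10-Cre restores Bmal1 in the suprachiasmatic nucleus, the central clock of the brain. The KO mice that stand beside them carry the blocked gene without that rescue, and WT mice express Bmal1 in every tissue. Each of the 3 genotypes was sampled at 6 times, ZT0, 4, 8, 12, 16 and 20, with 3 livers each. The sources used here give no age, sex, strain, feeding schedule or light schedule. Nothing in them says that the 3 livers of a group came from separate mice, so p-values measure the spread between these libraries only. Livers are named by the number in their column, 0, 1 or 2, and the same number at different times does not mark a shared animal.

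Zeitgeber time counts hours from lights on, so in nocturnal mice ZT4 and ZT8 both fall in the rest phase, when little food is taken. During fasting the nuclear receptor PPAR alpha switches on the genes by which the liver burns fatty acids in mitochondria and peroxisomes and turns them into ketone bodies. Glucagon, through cAMP, and glucocorticoids raise the genes of glucose synthesis over the same hours. The cell clock, in which the BMAL1 and CLOCK proteins drive the Period, Cryptochrome and REV-ERB genes, adds a timing signal of its own where Bmal1 is present.

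The proximal promoters of 3 genes that rose are shown because they stand for the results that follow: Mfsd2a had the largest rise of the called genes, Fgf21 is the fasting hormone of the PPAR alpha group, and Cpt1a is its entry enzyme. Each runs from 250 bases before to 50 bases after a start given by RefSeq on GRCm38.p6, on the strand of the gene. The RefSeq span of Cpt1a begins at 3322326, before its window, so the sequence around that position is not covered. Capitals mark the E-box CACGTG, the sequence bound by BMAL1 and CLOCK.
Mfsd2a, chr4:122961139-122961438, minus strand: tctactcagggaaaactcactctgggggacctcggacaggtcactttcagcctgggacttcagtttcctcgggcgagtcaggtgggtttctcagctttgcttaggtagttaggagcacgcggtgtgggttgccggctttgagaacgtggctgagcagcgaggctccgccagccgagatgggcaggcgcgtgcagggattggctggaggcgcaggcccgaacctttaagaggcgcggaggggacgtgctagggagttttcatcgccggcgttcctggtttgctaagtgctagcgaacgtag
Fgf21, chr7:45615441-45615740, minus strand: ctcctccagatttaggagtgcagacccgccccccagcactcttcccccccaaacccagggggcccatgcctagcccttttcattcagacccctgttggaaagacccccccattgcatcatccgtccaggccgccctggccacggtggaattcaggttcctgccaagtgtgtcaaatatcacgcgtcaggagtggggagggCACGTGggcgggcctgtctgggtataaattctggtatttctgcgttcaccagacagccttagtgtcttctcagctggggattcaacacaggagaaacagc
Cpt1a, chr19:3323051-3323350, plus strand: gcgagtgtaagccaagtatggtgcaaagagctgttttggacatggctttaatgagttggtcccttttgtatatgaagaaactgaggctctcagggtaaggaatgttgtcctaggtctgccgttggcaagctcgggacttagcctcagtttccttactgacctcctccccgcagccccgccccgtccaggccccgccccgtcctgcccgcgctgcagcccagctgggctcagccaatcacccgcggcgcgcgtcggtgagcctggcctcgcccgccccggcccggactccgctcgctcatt
The Fgf21 window held 1 E-box, and the Mfsd2a and Cpt1a windows held none on either strand. An E-box stood in 7.15% of the 32851 promoters of this length in the RefSeq table. The sterol element TCACNCCAC was in 1.24% of them, the exact direct repeat of AGGTCA spaced by 1 in 0.0396% and the exact glucocorticoid element in 0.00913%. None of the last 3 was in the windows shown, which says only that these exact letters are not there.

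Across the 10932 genes tested, 56 differed between RE livers at ZT8 and at ZT4 (0.512%; limma on log2(FPKM + 1), Benjamini-Hochberg adjusted p below 0.05). Of these, 38 rose (0.348%) and 18 fell (0.165%), and the genes that rose included 8 of 35 genes of fat oxidation and ketogenesis. FPKM is fragments per kilobase of transcript and of the reads mapped, a level already scaled for length and depth. All fold differences are on the log2(FPKM + 1) scale, which understates the change of genes with low levels. At an unadjusted p below 0.05 there were 1655 genes, 831 higher at ZT8 (7.6%) and 824 lower (7.54%). The median difference over all tested genes was 0.0016.

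These calls drew the spread from all 18 groups and changed strongly with the libraries used. With the RE libraries alone there were 0 higher and 1 lower gene at an adjusted p below 0.05 and 1032 genes at an unadjusted p below 0.05, and with the 6 libraries compared alone there were 0 calls and 1248 genes at that unadjusted p. Leaving out liver 0 of RE ZT8 gave 183 higher and 70 lower genes, and leaving out liver 1 of RE ZT8 gave 18 and 10. Without liver 2 of RE ZT8, liver 0 of RE ZT4 or liver 1 of RE ZT4 no gene was called, while 1482, 1174 and 1039 genes had an unadjusted p below 0.05. Without liver 2 of RE ZT4 there were 39 higher and 33 lower genes. Every call between RE ZT8 and RE ZT4 named here is therefore lost in those 3 settings. None of the 55 called genes that were followed changed sign in any alternative run. In 52 of the 56 called genes the RE livers of both times did not overlap. Leaving out a liver could not reverse the sign of those genes, so the unchanged signs add no support.

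The ZT8 livers were less alike than the ZT4 livers. Spearman correlations across the tested genes lay between 0.959 and 0.975 among the RE ZT8 livers and between 0.980 and 0.988 among the RE ZT4 livers. The median SD of a gene on the log2 scale was 0.182 at RE ZT8 and 0.118 at RE ZT4. Hepatocyte markers such as Alb were high in all 6 livers, with summed levels of 53001 to 58391 FPKM at RE ZT8 and 41138 to 54594 FPKM at RE ZT4, as liver should have. All 11 Kupffer cell markers were highest in liver 0 of RE ZT8, where their summed level was 281 FPKM, against 92.8 and 132 FPKM in the other RE ZT8 livers and 95.1 to 116 FPKM at RE ZT4. In the other 48 libraries of the series this sum ran from 62.1 to 300 FPKM, with a median of 152 FPKM. Clec4f, a lectin receptor of Kupffer cells, was at 36.4, 14.2 and 19.9 FPKM at RE ZT8 and at 16.8, 17.2 and 14.0 FPKM at RE ZT4. Of 7 fat cell markers, 6 were highest in liver 2 of RE ZT8. The summed level of the 7 was 0.268 to 10.9 FPKM in the other 48 libraries, 0.236 to 2.02 FPKM in the other 5 RE livers and 22.9 FPKM in liver 2 of RE ZT8. Adipoq, the fat cell hormone adiponectin, was at 3.65 FPKM in that liver and listed at 0 in the other 5, as were Cfd, Retn and Plin1. In such bulk samples, fewer cells of a type and less RNA per cell cannot be told apart.

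The blocked gene itself was not called in RE livers. Arntl was at 10.6, 11.6 and 8.91 FPKM at RE ZT8 and at 13.1, 13.3 and 13.3 FPKM at RE ZT4. The ZT8 livers were all lower, yet the difference of -0.33 ± 0.17 (SE) was not called (adjusted p = 0.355). Transcript levels do not check the block, since KO livers held 9.76 to 13.0 FPKM at ZT8 and 11.9 to 13.4 FPKM at ZT4.

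Mfsd2a had the largest rise of the called genes. It encodes a transporter that carries lysophosphatidylcholine with its fatty acids across cell membranes. It was at 9.73, 21.2 and 61.7 FPKM at RE ZT8, against 0.477, 0.908 and 4.14 FPKM at RE ZT4. Every ZT8 liver stood above every ZT4 liver, and the ZT8 livers themselves were far apart. The difference was 3.34 ± 0.57 (SE, adjusted p = 0.00896), and leaving out each of the 6 livers in turn gave differences of 2.66 to 3.93 with adjusted p between 0.000157 and 0.110.

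Cdkn1a, which encodes the p21 inhibitor of cyclin-dependent kinases, was at 17.2, 28.6 and 166 FPKM at RE ZT8 and at 6.12, 6.43 and 10.8 FPKM at RE ZT4. The groups did not overlap, and liver 2 of RE ZT8 stood far above the others. The difference was 2.39 ± 0.48 (SE, adjusted p = 0.0173), and without that liver it was 1.44. Slc25a25, a carrier of ATP-Mg and phosphate across the inner mitochondrial membrane, was at 104, 109 and 89.5 FPKM at RE ZT8 and at 25.7, 7.68 and 51.6 FPKM at RE ZT4. Here it was the ZT4 livers that spread and the ZT8 livers that were alike (difference 2.14 ± 0.53, adjusted p = 0.0494). St3gal5, the synthase of the ganglioside GM3, was at 14.1, 48.4 and 164 FPKM at RE ZT8 and at 15.7, 11.5 and 7.39 FPKM at RE ZT4, so that liver 0 of ZT8 lay within the ZT4 range (difference 2.05, adjusted p = 0.0236).

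**Figure D1:**
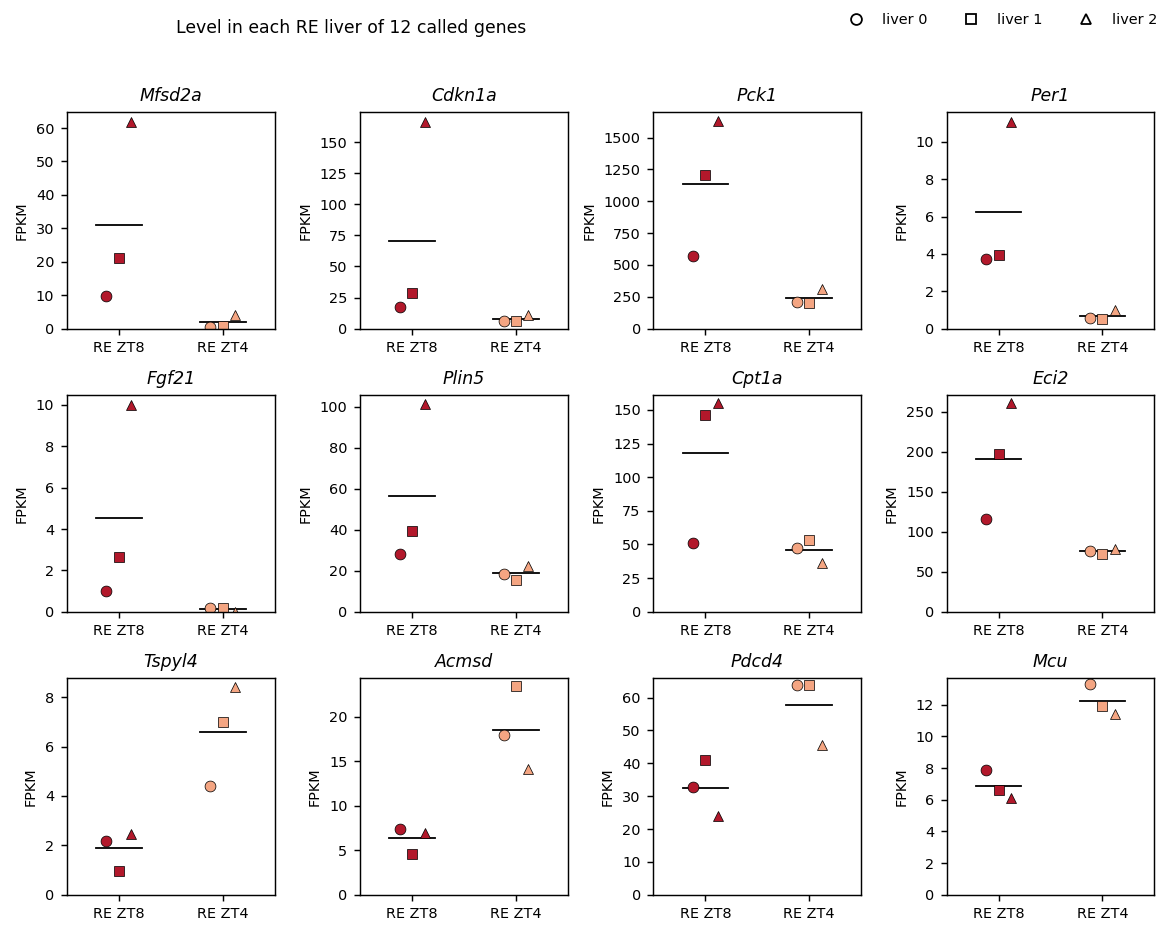
Level in FPKM of 12 called genes in each RE liver, 3 at ZT8 (dark red, left) and 3 at ZT4 (light, right). Symbols give the liver number and black lines the group mean. For 8 rises the triangle of liver 2 is the highest ZT8 value, as with Cdkn1a at 166 FPKM, and the 4 falls in the bottom row do not overlap between times.

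Rab30 and Slc25a22 were also among the large rises. Rab30, a small GTPase of the Golgi, was at 1.78, 10.2 and 14.4 FPKM at RE ZT8 and at 2.58, 2.38 and 1.91 FPKM at RE ZT4, with liver 0 of ZT8 below all ZT4 livers (difference 1.26, adjusted p = 0.0494). Slc25a22, a mitochondrial glutamate carrier, was at 94.3, 110 and 167 FPKM at RE ZT8 and at 50.1, 38.2 and 79.2 FPKM at RE ZT4, without overlap (difference 1.16, adjusted p = 0.0290).

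The fat oxidation and ketogenesis genes were the list with the highest share of calls. Of 35 members, all tested, 8 rose and 0 fell, against 0.348% of all genes that rose. The median difference of the list was 0.73, and 34 of the 35 differences were positive. At an unadjusted p below 0.05, 31 were higher at ZT8, against 7.6% of all genes. In 21 of the 35 (60%) every RE ZT8 liver stood above every RE ZT4 liver, which held for 8.66% of all tested genes. The list was chosen with results of these data known, so these counts describe it and test nothing further.

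The entry of fatty acids into mitochondria is controlled by Cpt1a, and Slc25a20 exchanges the acylcarnitines across the inner membrane. Cpt1a was at 51.4, 146 and 155 FPKM at RE ZT8 and at 47.3, 53.1 and 36.5 FPKM at RE ZT4. Liver 0 of ZT8 lay inside the ZT4 range and the other ZT8 livers well above it (difference 1.21 ± 0.27, adjusted p = 0.0290), and without liver 0 the difference was 1.72. Slc25a20 was at 56.6, 97.0 and 126 FPKM at RE ZT8 and at 52.5, 47.3 and 47.0 FPKM at RE ZT4, with no overlap (difference 0.84, adjusted p = 0.0473).

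Inside the mitochondria, Acadvl starts the breakdown of long chains and Hadhb is the beta subunit of the trifunctional protein that carries it on. Acadvl was at 293, 309 and 308 FPKM at RE ZT8 and at 235, 232 and 234 FPKM at RE ZT4, a small rise with little spread at either time (difference 0.37 ± 0.09, adjusted p = 0.0494). Hadhb was at 125, 162 and 191 FPKM at RE ZT8 and at 112, 112 and 118 FPKM at RE ZT4 (difference 0.46, adjusted p = 0.0389). Its partner Hadha differed by 0.41 and did not pass (adjusted p = 0.0506). Acadl and Acadm, which take up medium and long chains, differed by 0.48 and 0.43 (adjusted p = 0.0565 and 0.0892).

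Eci2, which moves double bonds so that unsaturated fatty acids can be oxidised, was not on the list and was among the largest rises. It was at 115, 197 and 261 FPKM at RE ZT8 and at 76.4, 72.5 and 78.8 FPKM at RE ZT4, and no liver overlapped (difference 1.25 ± 0.23, adjusted p = 0.00969). Another 3 enzymes of the same auxiliary steps were called and are named after their values were seen. Ech1 was at 397, 413 and 405 FPKM at RE ZT8 and at 237, 221 and 216 FPKM at RE ZT4 (difference 0.85, adjusted p = 0.0290). Decr1 and Eci1 rose by 0.69 and 0.66 on the log2 scale (adjusted p = 0.0290 and 0.0480). Ech1 and Decr1 differed from most of the other rises in that their ZT8 livers were nearly equal, liver 0 included.

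Ketone bodies are the fuel that the liver makes from fatty acids for other organs. Bdh1, which converts one ketone body into the other, differed by 0.73 without passing (adjusted p = 0.148), though its groups did not overlap.

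Fgf21, a hormone the liver releases in fasting, was at 1.01, 2.62 and 9.98 FPKM at RE ZT8, against 0.182 and 0.164 FPKM in 2 livers of RE ZT4 and 0 as listed in the third. The levels were low, and every ZT8 liver was above every ZT4 liver (difference 1.95 ± 0.41, adjusted p = 0.0221). Plin5, a coat protein that ties lipid droplets to mitochondria, was at 28.3, 39.3 and 101 FPKM at RE ZT8 and at 18.6, 15.3 and 22.4 FPKM at RE ZT4 (difference 1.34, adjusted p = 0.0236). Plin2, the main droplet coat of hepatocytes, was at 325, 710 and 541 FPKM at RE ZT8 and at 283, 236 and 221 FPKM at RE ZT4, which did not pass (difference 1.03, adjusted p = 0.0551).

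Several textbook PPAR alpha targets had large differences that did not pass, with livers that spread widely. Cyp4a10, a fatty acid omega-hydroxylase, was at 108, 153 and 552 FPKM at RE ZT8 and at 13.3, 15.9 and 34.9 FPKM at RE ZT4 (difference 3.35 ± 1.04, adjusted p = 0.117). Its groups did not overlap, but reads of the closely related Cyp4a genes may be shared among them, and Cyp4a14 and Cyp4a31 differed by 2.74 and 1.99 (adjusted p = 0.336 and 0.0551). Angptl4, an inhibitor of lipoprotein lipase, was at 10.7, 120 and 208 FPKM at RE ZT8 and at 37.7, 18.6 and 5.48 FPKM at RE ZT4, so that liver 0 of ZT8 was lower than 2 of the ZT4 livers (difference 1.97 ± 0.73, adjusted p = 0.190). Ppara itself differed by 0.50 (adjusted p = 0.282), and Pdk4, the kinase that shuts off pyruvate oxidation, was the only member with a negative difference (-0.05, adjusted p = 0.965).

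The livers of RE ZT8 did not share the fat oxidation pattern equally. Set against the mean of the RE ZT4 livers, the median of the 35 genes was 0.25 in liver 0, 0.69 in liver 1 and 1.14 in liver 2 of RE ZT8, and between -0.08 and 0.07 in the RE ZT4 livers. Liver 0, the lowest, is the one of the 6 where the Kupffer cell markers were highest, at a sum that other libraries of the series also reached. Liver 2, the highest, is the one with the fat cell markers. Some markers of other cell types were also highest in liver 0 or liver 2, as given above. Without liver 2 of RE ZT8 the list median was 0.52 with 0 calls, and without liver 0 it was 0.90 with 21 calls. Whether the other cell types had a part in these differences was not tested.

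**Figure D2:**
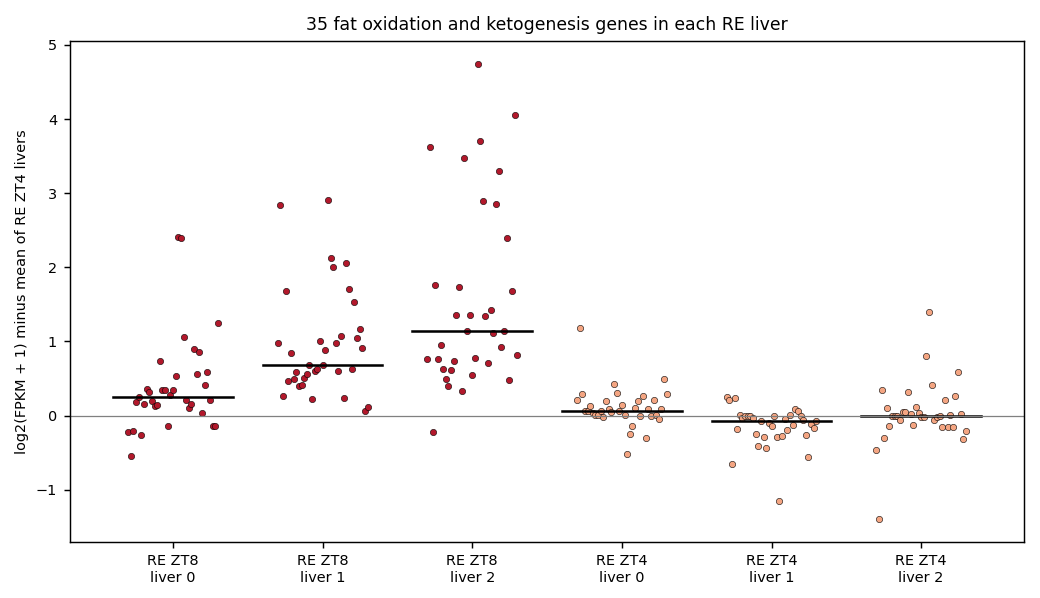
The 35 fat oxidation and ketogenesis genes in each RE liver, as log2(FPKM + 1) minus the mean of the 3 RE ZT4 livers. Each point is a gene, in the order of the list, and black lines are medians, at 0.25, 0.69 and 1.14 in the RE ZT8 livers and near 0 in the RE ZT4 livers.

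Of 18 tested genes of gluconeogenesis and the cAMP response, 1 rose and 0 fell, where 0.348% of all tested genes rose. The list median was 0.25. The gene that rose was Pck1, which encodes the enzyme PEPCK that commits carbon to glucose synthesis. Pck1 was at 571, 1209 and 1629 FPKM at RE ZT8 and at 211, 200 and 314 FPKM at RE ZT4. All ZT8 livers were higher (difference 2.13 ± 0.49, adjusted p = 0.0290). G6pc, which releases free glucose, was at 377, 286 and 392 FPKM at RE ZT8 and at 218, 104 and 293 FPKM at RE ZT4, with overlap (difference 0.88, adjusted p = 0.301). The coactivator gene Ppargc1a had a difference of -0.0021 (adjusted p = 1). Of the 16 genes of glycogen and glucose entry, 1 rose and 0 fell, beside the same 0.348%. This was Stbd1, which tethers glycogen to membranes and rose by 0.86 on the log2 scale (adjusted p = 0.0290). Ldha, which interconverts pyruvate and lactate, is named after its values were seen: it was at 785, 1058 and 953 FPKM at RE ZT8 and at 541, 535 and 538 FPKM at RE ZT4 (difference 0.78, adjusted p = 0.0124).

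Of 17 tested glucocorticoid receptor targets, 2 rose and 0 fell, where 0.348% of all tested genes rose and 0.165% fell. The list median of 1.00 was the largest of the 27 pathway lists in RE livers, against 0.0016 over all tested genes. Differences were positive for 14 of the 17 in RE, 13 in KO and 6 in WT livers, with medians of 0.47 in KO and -0.04 in WT livers. Both genes that rose in RE livers, Per1 and Cdkn1a, belong to other lists too. Per1, a clock gene that glucocorticoids and cAMP also induce, was at 3.72, 3.92 and 11.1 FPKM at RE ZT8 and at 0.557, 0.508 and 1.02 FPKM at RE ZT4. The groups were far apart (difference 1.96 ± 0.36, adjusted p = 0.00935). Tsc22d3, the gene of the anti-inflammatory protein GILZ, was at 97.6, 91.3 and 241 FPKM at RE ZT8 and at 42.8, 35.7 and 81.7 FPKM at RE ZT4, and just missed (difference 1.35, adjusted p = 0.0636). Fkbp5, a cochaperone of the receptor, was at 4.07, 6.92 and 30.9 FPKM at RE ZT8 and at 3.82, 3.76 and 2.92 FPKM at RE ZT4 (difference 1.28, adjusted p = 0.150). The list median by liver was 0.26, 0.85 and 1.87 in livers 0, 1 and 2 of RE ZT8 and between -0.11 and 0.15 at RE ZT4. Of the metallothioneins, Mt2 was at 8.57, 356 and 72.5 FPKM at RE ZT8 and at 8.21, 5.84 and 3.35 FPKM at RE ZT4, a large and uneven difference that was not called (3.28, adjusted p = 0.202).

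Of 15 tested genes of lipoprotein lipase and lipid carriers, 1 rose, which was Mfsd2a, and 0 fell, where 0.348% of all tested genes rose. In 6 of the 15 (40%) every RE ZT8 liver was above every RE ZT4 liver, against 8.66% of all tested genes. Among these were the apolipoprotein genes Apoa1, Apoa4, Apoa5 and Apoc2, with differences of 0.53, 0.79, 0.58 and 0.42, none of which passed (adjusted p = 0.0952 to 0.307). Apoa1, the main protein of high-density lipoprotein, was at 16938, 18869 and 18503 FPKM at RE ZT8 and at 14664, 12661 and 10479 FPKM at RE ZT4. Of 24 genes of cytochrome P450 and haem supply, 1 rose and 0 fell, beside the same 0.348%. This was Nr1i2, the xenobiotic receptor PXR, at 21.8, 29.6 and 51.6 FPKM at RE ZT8 and at 17.9, 14.8 and 20.5 FPKM at RE ZT4 (difference 0.84, adjusted p = 0.0177). Alas1, the first enzyme of haem synthesis, was at 150, 145 and 200 FPKM at RE ZT8 and at 12.4, 12.9 and 130 FPKM at RE ZT4. A single ZT4 liver was near the ZT8 livers, and the difference of 2.50 was not called (adjusted p = 0.156).

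Lipid synthesis genes lay on the other side of 0 but were not called. All 25 genes of cholesterol synthesis and uptake had negative differences, with a median of -0.47, and 0 passed. At an unadjusted p below 0.05, 3 of the 25 were lower, against 7.54% of all tested genes. The list median by liver was 0.25, -0.33 and -1.27 in livers 0, 1 and 2 of RE ZT8 and 0.54, -0.24 and -0.24 in livers 0, 1 and 2 of RE ZT4, so the livers of both times overlapped. Sqle, an early oxygenase of the sterol branch, was at 64.9, 49.3 and 29.8 FPKM at RE ZT8 and at 95.5, 55.2 and 49.2 FPKM at RE ZT4 (difference -0.47, adjusted p = 0.580). Of 24 tested genes of fatty acid and triglyceride synthesis, 18 had negative differences, with a median of -0.39, and 0 passed. Acly, which makes cytosolic acetyl-CoA, was at 97.5, 39.8 and 35.4 FPKM at RE ZT8 and at 188, 98.5 and 105 FPKM at RE ZT4, without overlap (difference -1.26, adjusted p = 0.108). Srebf1, the gene of the lipogenic factor SREBP1, was at 81.0, 25.2 and 13.0 FPKM at RE ZT8 and at 40.3, 41.0 and 81.4 FPKM at RE ZT4, with liver 0 of ZT8 close to the highest ZT4 liver (difference -0.75, adjusted p = 0.354).

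Of the 19 core clock genes, 1 rose, Per1, and 0 fell, where 0.348% of all tested genes rose. The list median was -0.06. Per2, the partner of Per1, was at 3.47, 1.45 and 3.89 FPKM at RE ZT8 and at 1.28, 1.19 and 3.61 FPKM at RE ZT4, with overlap (difference 0.41, adjusted p = 0.524). Per3, Cry1, Cry2, Nr1d1, Nr1d2, Dbp, Tef and Hlf had differences between -0.22 and 0.03, none of them called. Of the cold-inducible genes, Rbm3 differed by 0.60 and Cirbp by -0.14 (adjusted p = 0.180 and 0.839). In the acute phase list 18 of 21 differences were positive and 0 passed, and liver 1 of RE ZT8 stood apart with a median of 0.84, against -0.16 and 0.21 in livers 0 and 2 of RE ZT8 and -0.085 to 0.054 at RE ZT4. In ribosome biogenesis, 18 of 22 differences were positive and 0 passed, with a median of 0.24.

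**Figure D3:**
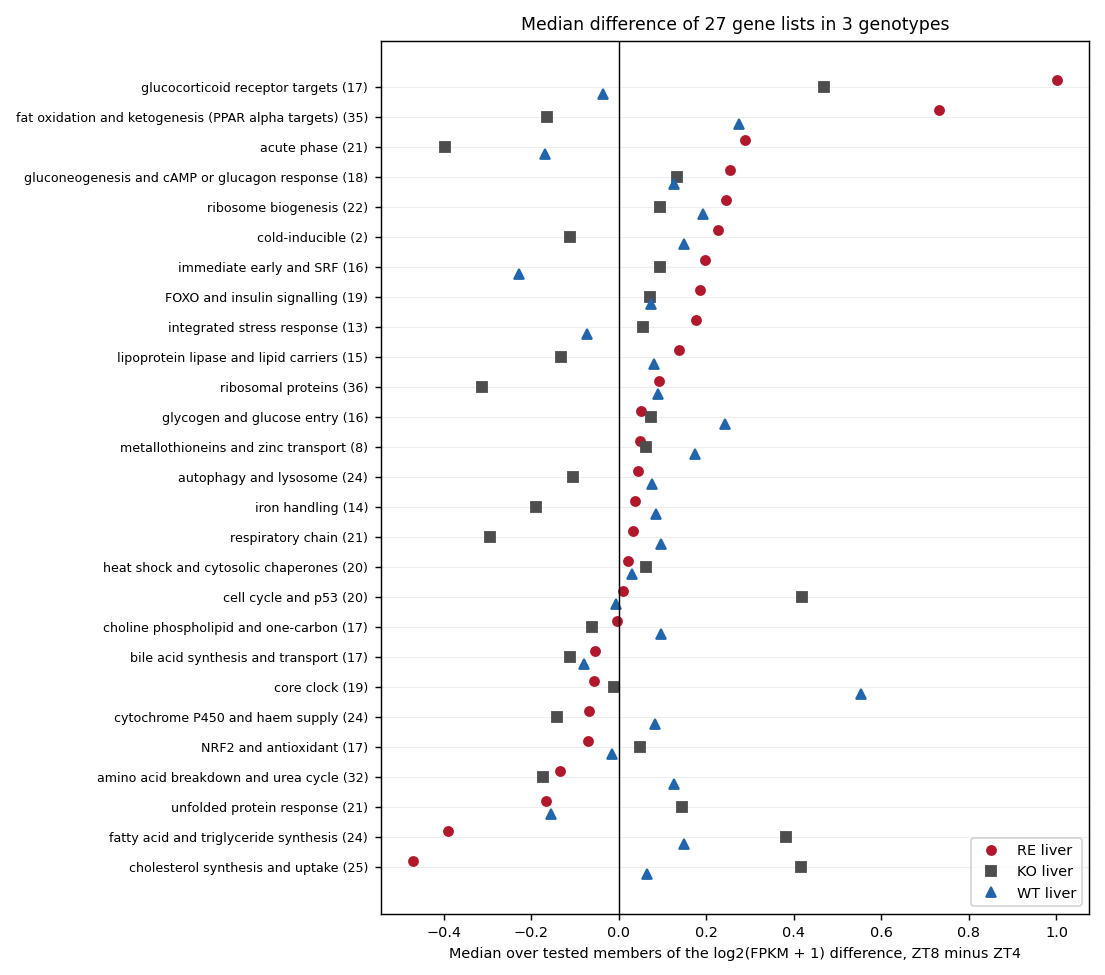
Median over the tested members of each of 27 gene lists of the log2(FPKM + 1) difference, ZT8 minus ZT4, in RE (circles), KO (squares) and WT livers (triangles). The number tested stands after each name. In RE livers glucocorticoid targets (1.00) and fat oxidation (0.73) lie farthest right and cholesterol synthesis (-0.47) farthest left.

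None of the 18 genes that fell was in a pathway list. Acmsd, which diverts tryptophan breakdown away from NAD synthesis, was at 7.43, 4.61 and 6.96 FPKM at RE ZT8 and at 17.95, 23.4 and 14.2 FPKM at RE ZT4. Every ZT8 liver was well below the ZT4 livers (difference -1.41 ± 0.30, adjusted p = 0.0236). Tspyl4, a nucleosome assembly protein family member, was at 2.18, 0.979 and 2.46 FPKM at RE ZT8 and at 4.404, 7.004 and 8.40 FPKM at RE ZT4 (difference -1.41 ± 0.33, adjusted p = 0.0333). Pdcd4, an inhibitor of translation initiation, was at 32.8, 41.0 and 23.8 FPKM at RE ZT8 and at 63.9, 63.9 and 45.5 FPKM at RE ZT4 (difference -0.83, adjusted p = 0.0341).

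Mcu encodes the pore of the mitochondrial calcium uniporter. It was at 7.91, 6.61 and 6.12 FPKM at RE ZT8 and at 13.3, 11.9 and 11.4 FPKM at RE ZT4, close within each time (difference -0.75, adjusted p = 0.0290). Cks2, a binding partner of cyclin-dependent kinases, was at 41.4, 38.4 and 26.1 FPKM at RE ZT8 and at 61.2, 54.8 and 55.4 FPKM at RE ZT4 (difference -0.70, adjusted p = 0.0389). Slc6a6, the taurine transporter, was at 13.9, 13.2 and 8.09 FPKM at RE ZT8 and at 19.6, 18.7 and 18.2 FPKM at RE ZT4 (difference -0.68, adjusted p = 0.0225). The other named falls were Depdc7, Ppfibp2, Gpsm2, Mmp19, Mreg and Chac2, with differences between -0.79 and -0.58. Gpsm2 orients the mitotic spindle, Mmp19 is a matrix metalloproteinase and Chac2 degrades glutathione.

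Of the 56 called genes, 52 had no overlap between the RE livers of both times, against 8.66% of all tested genes with every ZT8 liver higher and 9.18% with every ZT8 liver lower. The genes were called on these same livers, so this separation follows largely from their choice and adds no support. Of the 38 rises, 31 were highest in liver 2 of RE ZT8 and 28 lowest in liver 0 of RE ZT8. Of the 18 falls, 12 were lowest in liver 2 of RE ZT8. The rises that were alike in all 3 ZT8 livers, such as Ech1, Decr1, Acadvl and Gemin2, had smaller differences than Mfsd2a or Cdkn1a. Gemin2, a subunit of the SMN complex that assembles spliceosomal particles, was at 13.4, 14.3 and 14.6 FPKM at RE ZT8 and at 10, 9.20 and 10.1 FPKM at RE ZT4 (difference 0.49 ± 0.09, adjusted p = 0.00896).

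Across the RE day, most rises had their maximum at ZT8, a description that the choice of the genes favours. Of the 38 rises, 30 had their highest RE mean at ZT8, 4 at ZT12 and 4 at ZT16, and 17 had their lowest at ZT4. Of the 18 falls, 11 were highest at ZT4 and 10 lowest at ZT8. Fgf21 had its highest RE mean at ZT8, 4.54 ± 4.78 FPKM (SD), and means of 0.115 to 0.815 FPKM at the other 5 times. Liver 0 of RE ZT8, at 1.01 FPKM, lay within the range of RE ZT12, 0.664 to 1.10 FPKM. Cpt1a averaged 45.6 ± 8.42 FPKM at RE ZT4, 118 ± 57.6 at ZT8, 80.0 ± 3.56 at ZT12 and 51.2 ± 20.9 at ZT16 (SD, n = 3 each). Pck1 stayed up longer, with RE means of 241 FPKM at ZT4, 1136 at ZT8, 1012 at ZT12, 1014 at ZT16 and 395 at ZT20. Per1 also stayed up, with RE means of 0.695 FPKM at ZT4, 6.24 at ZT8, 6.49 at ZT12 and 8.66 at ZT16. Acmsd ran the other way, with RE means of 34.1 FPKM at ZT0, 18.5 at ZT4, 6.33 at ZT8, 7.94 at ZT12, 21.4 at ZT16 and 32.8 at ZT20.

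**Figure D4:**
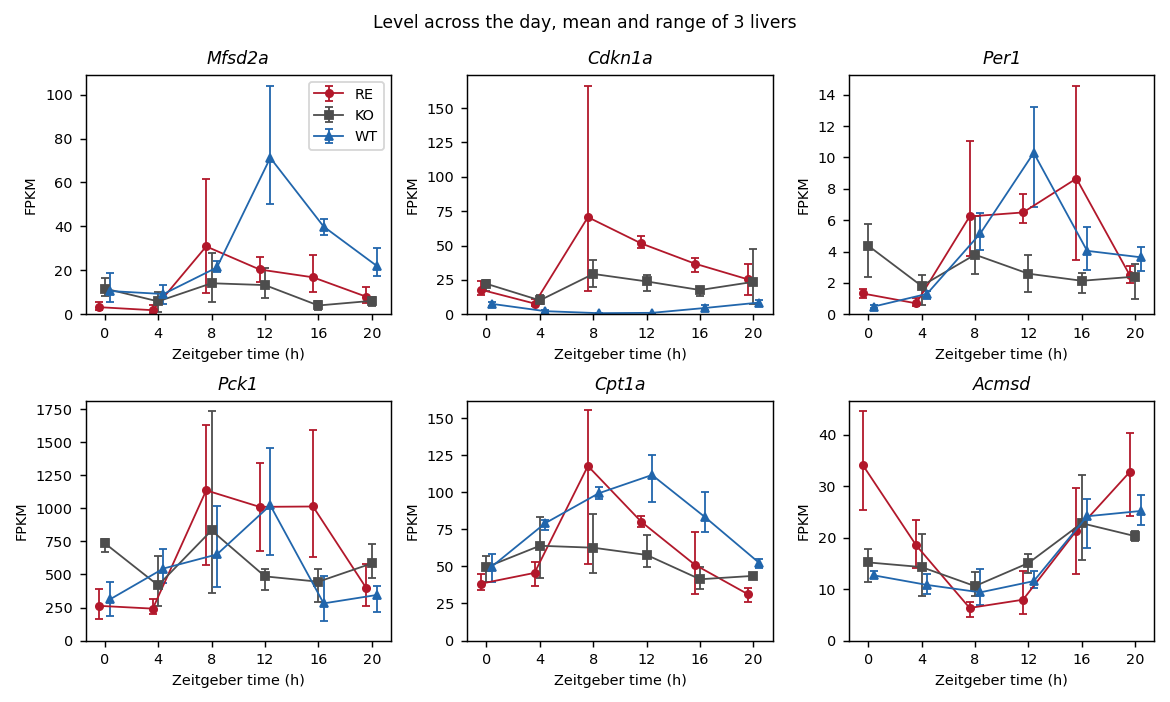
Level in FPKM of 6 named genes across zeitgeber time in RE (circles), KO (squares) and WT livers (triangles), as the mean of 3 livers with bars for their range. RE Mfsd2a, Cdkn1a and Cpt1a are highest at ZT8, with wide bars there, and RE Acmsd is lowest at ZT8.

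The same interval was set beside that of the other genotypes, whose livers are separate samples. In KO livers 0 of 10932 genes were called between ZT8 and ZT4 by limma (0%), while 566 were higher (5.18%) and 1108 lower (10.1%) at an unadjusted p below 0.05. Without liver 2 of KO ZT8 there were 6 higher and 55 lower genes, and without liver 0 of KO ZT8 there were 4 and 6. In WT livers 84 genes were called (0.768%), 46 higher (0.421%) and 38 lower (0.348%). Of the 38 rises in RE livers, 22 had a positive difference in KO and 29 in WT livers, and of the 18 falls 12 were negative in KO and 17 in WT livers. The median difference over all tested genes was -0.017 in KO and 0.019 in WT livers. Whether the called genes shared their direction more often than other genes was not tested. A call in 1 genotype and none in another does not show that they differ, and the differences themselves were tested next.

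The RE difference minus the KO difference passed for 2 genes (0.0183%), 1 higher (0.00915%) and 1 lower (0.00915%), while 1047 genes were higher (9.58%) and 672 lower (6.15%) at an unadjusted p below 0.05. Gemin2 was at 13.4, 14.3 and 14.6 FPKM in RE ZT8 livers and at 10, 9.20 and 10.1 FPKM in RE ZT4 livers, beside 8.31, 8.97 and 10.7 FPKM in KO ZT8 livers and 10.8, 11.7 and 11.5 FPKM in KO ZT4 livers. The time difference had opposite signs, 0.49 in RE and -0.26 in KO livers, and differed by 0.75 ± 0.13 (SE, adjusted p = 0.00609). Slc6a6 did the reverse, with -0.68 in RE and 0.48 in KO livers, which differed by -1.16 ± 0.20 (SE, adjusted p = 0.00628). The result depended on single livers: without liver 2 of KO ZT8 it gave 149 higher and 44 lower genes, without liver 0 of RE ZT8 68 and 16, and without liver 2 of KO ZT4 13 and 6. It gave 2 higher and 0 lower genes without liver 2 of RE ZT8, and 1 and 0 without liver 1 of KO ZT8. Slc6a6 was thus not called in either of these runs. With the libraries of RE and KO alone 0 genes passed, and 1203 had an unadjusted p below 0.05. The fat oxidation list had a median difference of 0.73 in RE and -0.16 in KO livers, and no member passed the test of the difference (smallest adjusted p = 0.105).

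The RE difference minus the WT difference passed for 19 genes (0.174%), 7 higher (0.064%) and 12 lower (0.11%). Of these, 7 belong to the core clock list, and all 7 were called between ZT8 and ZT4 in WT livers and not in RE livers. In KO livers, as given above, no gene was called, and none of the 19 passed the RE minus KO test. Dbp, a transcription factor driven directly by BMAL1, was at 2.07, 2.26 and 0.875 FPKM in RE ZT8 livers and at 2.06, 2.42 and 1.66 FPKM in RE ZT4 livers, beside 73.4, 79.7 and 71.5 FPKM in WT ZT8 livers and 7.40, 18.5 and 30.2 FPKM in WT ZT4 livers. RE livers were low and level, and WT livers rose (difference between genotypes -2.33 ± 0.38, adjusted p = 0.000557). KO livers were low too, at 1.45, 0.925 and 1.74 FPKM at ZT8 and at 2.67, 2.72 and 1.95 FPKM at ZT4. Ciart and Per3, a repressor and a Period gene, gave -2.14 and -1.82 (adjusted p = 7.72e-08 and 8.63e-08). Their time differences in KO livers were 0.15 and 0.02. Gys2, the liver glycogen synthase, differed by 0.06 in RE, -0.04 in KO and 1.12 in WT livers (difference between RE and WT -1.06, adjusted p = 0.00586).

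On the other side, Insig2, which retains SREBP proteins in the endoplasmic reticulum, was at 235, 420 and 507 FPKM in RE ZT8 livers and at 266, 248 and 254 FPKM in RE ZT4 livers, beside 42.5, 69.9 and 60.01 FPKM in WT ZT8 livers and 173, 146 and 109 FPKM in WT ZT4 livers. WT livers fell while RE livers did not pass, and the difference between genotypes was 1.82 ± 0.32 (SE, adjusted p = 0.00181). In KO livers the time difference of Insig2 was 0.05. Cdkn1a rose in RE livers by 2.39 and differed by -0.79 in WT livers, where its level was low (difference between genotypes 3.17 ± 0.68, adjusted p = 0.0234). In KO livers Cdkn1a was at 19.6, 28.8 and 39.6 FPKM at ZT8 and at 9.10, 13.9 and 7.37 FPKM at ZT4, without overlap. That KO difference of 1.44 was not called (adjusted p = 0.212 by limma). The RE difference minus the KO difference was 0.95 and did not pass (adjusted p = 0.481 by limma). The fat oxidation list had a median of 0.73 in RE and 0.27 in WT livers, and 0 members passed the test of the difference (smallest adjusted p = 0.0861). Per1, in turn, rose in both genotypes, by 1.96 in RE and 1.41 in WT livers (adjusted p = 0.0493 in WT). Without liver 0 of RE ZT8 the test gave 36 higher and 21 lower genes, and without liver 0 of WT ZT4 it gave 3 and 8. Without liver 2 of WT ZT4 there were 12 and 14, and without liver 0 of WT ZT8 there were 4 and 10.

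**Figure D5:**
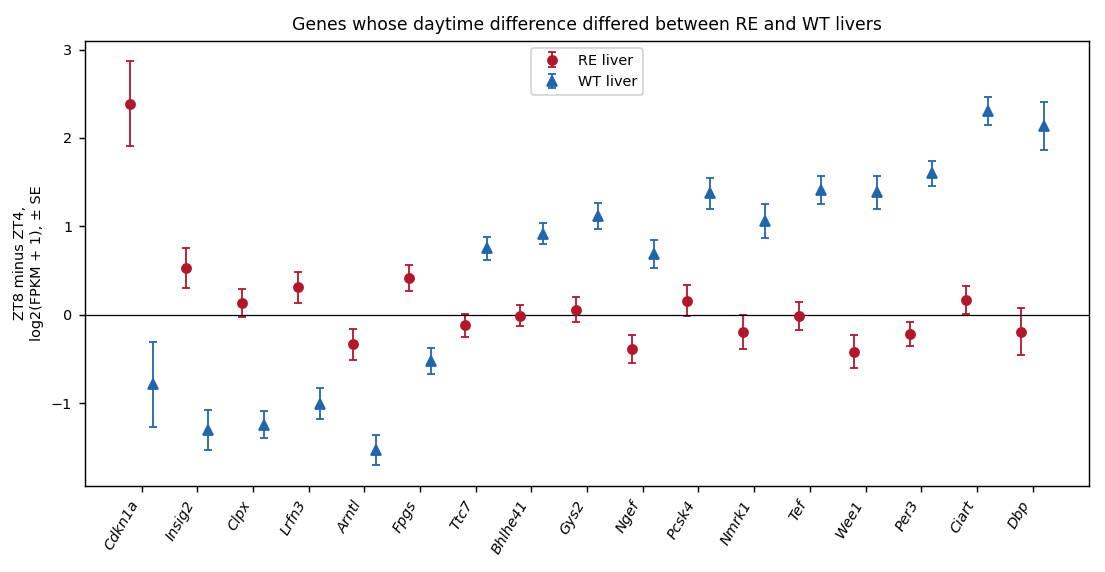
Difference between ZT8 and ZT4 on the log2(FPKM + 1) scale, with its SE, in RE (circles) and WT livers (triangles) for 17 of the 19 genes whose difference was not the same in both by limma. The SE comes from the spread shared by all 18 groups. It is therefore equal in RE and WT livers for each gene and does not show the spread of either. Cdkn1a stands at 2.39 in RE and -0.79 in WT livers, and Dbp at -0.19 in RE and 2.14 in WT livers.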

How the data were processed

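Total RNA of 54 mouse livers was sequenced by a standard Illumina protocol, per the labels. The authors deposited 1 table of FPKM values for 24346 genes, and the submitters' processing notes name TopHat and the mouse build mm10; no source used here names the fragment counter, its strand setting or the read depth. Depth being unknown, no counting interval was computed. FPKM was used as log2(FPKM + 1). A gene was tested where its average reached 1 FPKM in any of the 18 groups (10932 genes). A group-means model was fitted to all 54 libraries (36 residual degrees of freedom) with limma 3.58.1 in R 4.3.3. It used a mean-variance trend and Benjamini-Hochberg adjustment over all tested genes. The model was checked on simulated data in which the spread of each gene was equal in all groups. That check cannot show how the fit performs where the spread differs between groups. Total FPKM of the 6 RE libraries ran from 669800 to 744895, with 14862 to 15260 genes above 0, and no pair of libraries was identical.

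The comparison, the gene lists and the tests were chosen with earlier results of these data known. Named genes are the 12 largest rises and falls called with a mean of at least 5 FPKM, up to 4 called members of each list, a set of well-known genes, and up to 6 genes in each direction of each difference between genotypes; others are said to be chosen after their values were seen. Acadvl, Hadhb and Slc25a20 are further called members of their list, and Acadl, Acadm, Acly, Apoa1, Apoa4, Apoa5, Apoc2, Bdh1, Cyp4a31, Hadha and Plin2 were also picked after their values were seen. Some genes that the rule names are not reported here, though they remain in the counts. RefSeq places 51 of 107 genes followed over another gene, whose reads cannot be told apart without strand. Alternatives were another pseudocount, other filters, centring each library on its median, fewer libraries in the fit, no trend, and each liver left out in turn. Promoters and gene names come from RefSeq on GRCm38.p6.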

Additional observations from a re-analysis of the deposited data

Results flagged for a closer look

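A total of 19 genes are given here because the difference between ZT8 and ZT4 itself differed between RE livers and another genotype (limma, adjusted p below 0.05). Values are the RE difference minus the other genotype's difference on the log2(FPKM + 1) scale. Against KO livers, Gemin2 gave 0.75 and Slc6a6 gave -1.16.

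Against WT livers, the activator of the clock Arntl gave 1.20, with -0.33 in RE and -1.53 in WT livers. Its targets and partners went the other way, with -2.14 for Ciart, -2.33 for Dbp, -1.82 for Per3, -1.43 for Tef and -0.93 for Bhlhe41. Wee1, a kinase that holds back mitosis, gave -1.80, with -0.42 in RE and 1.39 in WT livers. Among metabolic genes, Gys2 gave -1.06, and Nmrk1, a kinase of the NAD salvage route, gave -1.25. Ngef, Ttc7 and Pcsk4 gave -1.08, -0.87 and -1.21.

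The positive values were 3.17 for Cdkn1a, 1.82 for Insig2 and 1.38 for Clpx, an unfoldase of the mitochondrial matrix that also activates haem synthesis. Lrfn3 gave 1.32. Fpgs, which adds glutamates to folates, gave 0.94, with 0.41 in RE and -0.52 in WT livers. Cdkn1a was called in RE livers and not in WT livers, and Clpx, Insig2 and Lrfn3 were called in WT livers and not in RE livers. In KO livers Cdkn1a differed by 1.44, which was not called. None of the genes given here against WT livers passed the RE minus KO test.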

How the results depend on the processing

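The counts held within 1.5 times under another pseudocount, both other filters, median-centring and no trend in every comparison, except that without a filter the RE minus KO test gave 2 higher genes. Median-centring gave 47 higher and 15 lower genes in RE livers, of which 52 calls were shared with the 56 reported. Fewer libraries changed more. With the genotypes compared alone there were 0 higher and 1 lower in RE, 0 and 1 in KO and 102 and 78 in WT livers, 0 and 0 for RE minus KO, and 7 and 14 for RE minus WT. With the groups compared alone the counts were 0 and 0 in RE, 1 and 0 in KO and 0 and 0 in WT livers, 0 and 0 for RE minus KO, and 2 and 3 for RE minus WT. Such fits have fewer residual degrees of freedom by construction, and they take the spread from those libraries alone. In WT livers the counts rose with the WT libraries alone, from 46 and 38 to 102 and 78. The median SD of a gene on the log2 scale was 0.182 at RE ZT8 and 0.0967 at WT ZT8. What part each had in the changed counts was not tested.

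Leaving out each liver in turn gave 0 to 183 higher and 0 to 70 lower genes in RE, 0 to 6 and 0 to 55 in KO and 22 to 37 and 13 to 46 in WT livers, 1 to 149 and 0 to 44 for RE minus KO, and 3 to 36 and 8 to 21 for RE minus WT. In WT livers the lowest count was without liver 0 of WT ZT4, 22 higher and 15 lower. Of the 52 uncalled genes followed, 18 changed sign in some alternative and 8 were called in some. Of the 55 called genes followed, 0 changed sign, which the lack of overlap in most of them made likely beforehand. No paired analysis was possible because the columns carry the numbers 0 to 2, which are not those of the sample titles, 1 to 3. The read depth is unknown, so no detection limit can be given.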

Other observations

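Other genes called between RE ZT8 and RE ZT4 livers, chosen after their values were seen, are given as values. Hnf4a, a master transcription factor of hepatocytes, was at 109, 137 and 202 FPKM at RE ZT8 and at 85.0, 83.7 and 104 FPKM at RE ZT4, without overlap (difference 0.67, adjusted p = 0.0290 by limma). Tnfrsf1b, the second receptor of tumour necrosis factor, was at 9.41, 8.23 and 17.6 FPKM at RE ZT8 and at 5.15, 4.33 and 5.04 FPKM at RE ZT4 (difference 1.06, adjusted p = 0.00896 by limma). Among falls, Dnmt1, the maintenance DNA methyltransferase, was at 1.497, 1.17 and 0.989 FPKM at RE ZT8 and at 1.85, 2.36 and 1.99 FPKM at RE ZT4 (difference -0.47, adjusted p = 0.0259 by limma). Cyp4f14, an omega-hydroxylase of another family than Cyp4a, was at 204, 162 and 182 FPKM at RE ZT8 and at 270, 209 and 240 FPKM at RE ZT4 (difference -0.39, adjusted p = 0.0480 by limma).

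Some single livers held values far from the rest. Lpin1, a phosphatidate phosphatase and coactivator of fasting genes, was at 5.80, 6.77 and 123 FPKM at RE ZT8 and at 9.51, 5.63 and 5.0 FPKM at RE ZT4 (difference 1.32, adjusted p = 0.328 by limma). Nr4a1, an immediate early nuclear receptor, was at 1.39, 0.510 and 20.5 FPKM at RE ZT8 and at 0.443, 0.658 and 0.692 FPKM at RE ZT4 (difference 1.42, adjusted p = 0.309 by limma). In both, liver 2 of RE ZT8 alone was high.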
